A study of Mus musculus with 6 samples.

Results

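The genes described here are 10 genes of interleukin 6 (IL6) family signalling, taken by name from a table of 43629 mouse gene IDs: the shared signalling receptor Il6st (gp130), the partner chains Lifr and Osmr, the ligand-specific receptors Il6ra, Il11ra1 and Cntfr, the ligands Lif and Il11, the transcription factor Stat3 and the feedback inhibitor Socs3. The set was chosen by name with the levels and fold changes of this same comparison in view, so the values of these genes between the groups are a description and no test is drawn from them. Of the 10, 9 had enough counts to enter the fit across 13445 genes, and Cntfr did not. The cells were M1, a neuroblastoma line of the mouse, on day 6 of doxycycline at 4 to 6 µg/ml, which both groups received, and poly-A RNA was read in bulk. In 3 libraries the cells carried an induced short hairpin RNA against Igf2bp1 (shIGF2BP1, genotype label IGF2BP1 knockdown), and in the other 3 an induced non-targeting hairpin (shNT, genotype label WT). The labels do not say whether the cells were a clone or whether replicates were separate cultures, so that a p-value reflects only how these libraries vary, and that variation may be technical.

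Cytokines of the IL6 family act through gp130, the product of Il6st, which carries the signal but binds most ligands weakly on its own. IL6 and IL11 bind their own receptors, Il6ra and Il11ra1, and then bring gp130 chains together, whereas LIF pairs gp130 with Lifr, CNTF adds Cntfr to that pair, and oncostatin M in mice acts mainly through Osmr with gp130. The paired chains activate JAK kinases, which phosphorylate STAT3 and recruit the phosphatase SHP2, and STAT3 induces Socs3, an inhibitor that binds the phosphorylated receptor. In sympathetic neurons LIF and CNTF are known for switching transmitter phenotype, and IL6 from bone marrow stroma is known as a survival factor for human neuroblastoma cells.

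Promoters are shown for the receptor with the largest difference between the groups, Il6st, and for the feedback gene Socs3, which is induced by STAT3. The sequences are RefSeq windows on GRCm38.p6 from 250 bases before to 50 after the annotated start, read 5′ to 3′ on the gene's own strand. Capitals mark a STAT-type match: TTNCNNNAA in Il6st and TTCNNNGAA in Socs3.
Il6st promoter: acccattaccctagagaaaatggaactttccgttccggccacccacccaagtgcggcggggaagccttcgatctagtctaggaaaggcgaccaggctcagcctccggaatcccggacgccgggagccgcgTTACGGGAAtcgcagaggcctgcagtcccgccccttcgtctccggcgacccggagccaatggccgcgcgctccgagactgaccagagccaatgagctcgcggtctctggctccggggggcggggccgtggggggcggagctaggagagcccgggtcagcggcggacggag
Socs3 promoter: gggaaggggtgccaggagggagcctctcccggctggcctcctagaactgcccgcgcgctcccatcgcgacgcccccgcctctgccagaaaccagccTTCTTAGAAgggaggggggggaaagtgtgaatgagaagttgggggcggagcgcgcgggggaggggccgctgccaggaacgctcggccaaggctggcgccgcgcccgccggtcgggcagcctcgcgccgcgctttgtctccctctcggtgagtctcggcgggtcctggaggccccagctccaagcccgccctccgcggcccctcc
The Il6st window lies at chr13:112463820-112464119 on the plus strand, and its match TTACGGGAA runs from base -120 to base -112 relative to the start. The Socs3 window lies at chr11:117969317-117969616 on the minus strand, and its match TTCTTAGAA runs from base -154 to base -146, and this window lies inside the bounds that GENCODE gives the gene. All 10 genes had at least 1 window, 18 in total, and both strands were searched. The palindromic form TTCNNNGAA occurred in the Socs3 window and in no other of the 18, against 8.30% of all 32851 RefSeq windows. The looser form TTNCNNNAA, which can share bases with the first, occurred in 36.6% of all windows and in at least 1 window of Il6st, Il6ra, Osmr, Stat3, Il11ra1 and Cntfr. A match describes letters in the window and not a bound site.

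Igf2bp1, the targeted gene, which encodes an RNA-binding protein, was not consistently lower under its own hairpin. It had 67, 35 and 311 counts in the libraries labelled shIGF2BP1 and 37, 175 and 201 counts in shNT libraries (log2 fold change 0.25 ± 0.79 SE, edgeR adjusted p = 0.966), so every direction below compares libraries by their labels and not a measured loss of Igf2bp1. That log2 fold change turned to -1.24 without shIGF2BP1 replicate 3, the library with 311 counts, to -0.18 without shNT replicate 1, to -0.24 by limma-voom and to -0.047 with a replicate block. Library totals ran from 25119655 to 34014482 counts in the libraries labelled shIGF2BP1 and from 30756389 to 35373076 in shNT libraries. The edgeR test called 3 of 13445 genes, or 0.0223%, at an adjusted p under 0.05. The library shNT replicate 3 stood apart, being the highest of the 6 for 24.5% of tested genes against 12.0% to 18.1% for the other 5. Of 11 neuroblastoma markers, Th and Dbh were at 0 counts in every library and Phox2a had 1 count in all, while Hand2, Gata3, Isl1 and Mycn were expressed. Among markers of other cells, Adgre1, Tyrobp, Cd3e, Emcn, Sox10, S100b, Foxd3 and Lum had 0 counts in every library, and Ptprc had 1 count in all. Summed endothelial markers, mostly Pecam1, were 31.4 to 73.8 CPM in the libraries labelled shIGF2BP1 and 37.4 to 54.5 CPM in shNT libraries, and Kdr of that list had 1.37, 2.47 and 0.802 CPM in the libraries labelled shIGF2BP1, against 9.94, 2.32 and 5.83 CPM in shNT libraries (log2 fold change -1.95 ± 0.58 SE, edgeR adjusted p = 0.524; called by edgeR with no filter). Summed fibroblast markers, mostly the collagens Col1a1 and Col3a1, were 541 to 999 CPM in the libraries labelled shIGF2BP1 and 509.7 to 918 CPM in shNT libraries. Summed Schwann and glial markers were 6.12 to 13.1 CPM in the libraries labelled shIGF2BP1 and 11.7 to 12.7 CPM in shNT libraries. Postn of the fibroblast list had 15, 11 and 91 counts in the libraries labelled shIGF2BP1, against 0, 8 and 4 in shNT libraries. Its log2 fold change was 3.48 ± 1.09 (SE, edgeR adjusted p = 0.537), and edgeR called it with no filter. Pdgfra had -0.69 ± 0.30 (edgeR adjusted p = 0.687) and Erbb3, of the glial list, -0.51 ± 0.30 (edgeR adjusted p = 0.781). The groups did not overlap for Postn and Erbb3, as for 6.06% of tested genes upwards and 5.59% downwards.

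Il6st was the most different of the tested IL6 family genes by log2 fold change and sat at lower levels in the libraries labelled shIGF2BP1. Il6st (ENSMUSG00000021756; plus strand of chromosome 13, 112464070 to 112510086, GRCm38) had 2685, 4030 and 4662 counts in the libraries labelled shIGF2BP1 and 4798, 12612 and 15361 counts in shNT libraries. These were 102, 114 and 169.9 CPM (counts scaled to library size, with TMM factors) in the libraries labelled shIGF2BP1, against 162, 370.1 and 464 CPM in shNT libraries. The groups overlapped by a single pair, since shIGF2BP1 replicate 3 was slightly above shNT replicate 1. Means were 129 ± 36.1 CPM in the libraries labelled shIGF2BP1 and 332 ± 155 CPM in shNT libraries (SD, n = 3 each). That is a level 2.58-fold lower, with a log2 fold change of -1.37 ± 0.36 (SE). The value stayed between -1.70, without shNT replicate 1, and -1.05, without shNT replicate 3. Prrx1, a transcription factor of the mesenchymal state of neuroblastoma cells, was measured beside it as a marker, at 68.4, 48.9 and 69.5 CPM in the libraries labelled shIGF2BP1, against 129.8, 147 and 148 CPM in shNT libraries (edgeR adjusted p = 0.13; called by DESeq2 and by edgeR with no filter), and its part in the Il6st difference was not tested. In bulk RNA such as this, fewer cells of a kind and less RNA per cell cannot be told apart.

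Of the 9 tested IL6 family genes, 7 had a negative log2 fold change and 2 a positive one, where 51.5% of all tested genes were negative. The median was -0.36, against -0.01 over all tested genes. None of the 9 passed the edgeR threshold (0.0223% of all genes did), and 2, Il6st and Il6ra, had an unadjusted p under 0.05, as 7.16% of all genes did, and both were lower, as 3.99% of all genes were at that threshold. DESeq2 called the same 2 genes (0.61% of all genes) and limma-voom called 0 of the 9 (0.00744% of all genes). The comparison chose these genes, so these counts are given without reading anything from them. Without shNT replicate 3, 4 of the 9 were negative and the median was 0.05.

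**Figure D1:**
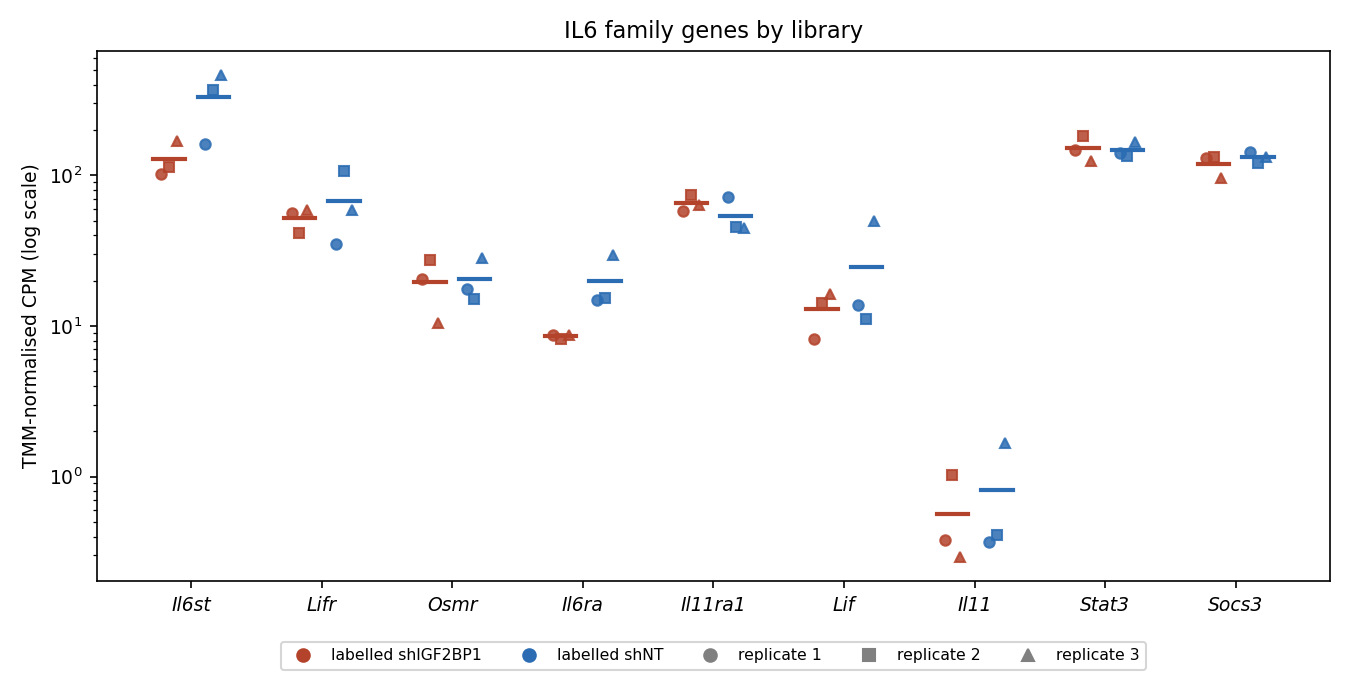
TMM-normalised CPM (log axis) of the 9 tested IL6 family genes in each library, with the 3 libraries labelled shIGF2BP1 (red) left of the 3 shNT libraries (blue); bars are group means and symbols give the replicate. Il6ra is the gene whose groups do not overlap, and shNT replicate 3 is the highest of the 6 libraries for Il6st, Il6ra, Osmr, Lif and Il11.

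The partner chains of gp130 lie beside each other on chromosome 15 and did not share the Il6st pattern. Lifr (ENSMUSG00000054263; plus strand, 7090614 to 7197489), the LIF receptor chain, had 56.2, 41.6 and 59.2 CPM in the libraries labelled shIGF2BP1, against 35.1, 107 and 59.0 CPM in shNT libraries. The shNT libraries spanned the whole range, with the lowest and the highest of the 6 values among them. Its log2 fold change was -0.36 ± 0.35 (SE), or 0.15 when shNT replicate 2, the highest library, was left out. Osmr (ENSMUSG00000022146; minus strand, 6813577 to 6874969), the oncostatin M receptor chain, had 20.6, 27.3 and 10.5 CPM in the libraries labelled shIGF2BP1, against 17.6, 15.2 and 28.3 CPM in shNT libraries. Highest and lowest values were mixed between the groups, and the log2 fold change of -0.06 ± 0.36 changed sign to 0.02 when scaled by library size only and to 0.25 without shNT replicate 3. The 2 genes are 215644 bases apart with 0 annotated protein-coding genes between them, yet Lifr was highest in shNT replicate 2, where Osmr had its second-lowest value.

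Among the ligand-specific receptors, Il6ra was lower in every library labelled shIGF2BP1, Il11ra1 was slightly higher on average, and Cntfr was not expressed at a measurable level. Il6ra (ENSMUSG00000027947; minus strand of chromosome 3, 89864059 to 89913196), which binds IL6, had 229, 288 and 240 counts in the libraries labelled shIGF2BP1, against 438, 520 and 982 in shNT libraries. Levels were 8.73, 8.16 and 8.75 CPM in the libraries labelled shIGF2BP1, against 14.8, 15.3 and 29.7 CPM in shNT libraries. The groups did not overlap, which held in this direction for 5.59% of all tested genes, and the libraries labelled shIGF2BP1 lay within 1.07-fold of each other while the shNT libraries spanned 2.01-fold. The log2 fold change was -1.22 ± 0.31 (SE), a level 2.33-fold lower, and -0.81 without shNT replicate 3. An antisense gene, Gm42809, shares 242 exon bases with Il6ra, and the strand setting of the counting is not given in the sources used here.

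Il6ra and Il6st are also expressed by leukocytes, so the markers of those cells are given beside them. The summed level of 11 macrophage and leukocyte markers was 8.53 to 9.44 CPM in the libraries labelled shIGF2BP1 and 11.8 to 17.4 CPM in shNT libraries. In shNT libraries the sum was mostly Cd68. Cd68, a lysosomal protein that other cells also make, had 3.66, 5.56 and 3.13 CPM in the libraries labelled shIGF2BP1, against 7.78, 14.6 and 13.1 CPM in shNT libraries. Cd14, a lipopolysaccharide co-receptor, had 3.89, 2.83 and 3.83 CPM in the libraries labelled shIGF2BP1, against 3.47, 1.73 and 1.94 CPM in shNT libraries, so the markers did not move in 1 direction. Fcer1g had 10, 20 and 10 counts in the libraries labelled shIGF2BP1, against 0, 6 and 1 in shNT libraries (log2 fold change 2.57 ± 0.92 SE, edgeR adjusted p = 0.616). Its groups did not overlap, as was so in this direction for 6.06% of tested genes. The pan-leukocyte gene Ptprc had 1 count in all 6 libraries together, and Adgre1, Tyrobp and Cd3e had none. Of the 11 markers, 4 were tested, 3 positive and 1 negative, and 0 passed the edgeR threshold. An unadjusted p under 0.05 was found for 2, Cd68 and Fcer1g, as for 7.16% of all genes. DESeq2 called 1, Cd68 (0.61% of all genes), and limma-voom 0. Their part in the Il6ra and Il6st differences was not tested.

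Il11ra1 (ENSMUSG00000073889; plus strand of chromosome 4, 41699989 to 41769474), the IL11 receptor, had 58.4, 73.6 and 63.8 CPM in the libraries labelled shIGF2BP1, against 72.3, 45.4 and 44.6 CPM in shNT libraries. The shNT replicate 1 value lay inside the range of the other group, and the log2 fold change was 0.27 ± 0.24 (SE). Mice carry close copies of this gene, so reads that matched several copies could have been lost or split. The copies Il11ra2 and Gm13305 had at most 2 counts in any library. Cntfr (ENSMUSG00000028444; minus strand of chromosome 4, 41657498 to 41697089), the CNTF receptor, had 0 counts in 5 libraries and 1 in shNT replicate 3. A count of 0 allows up to 3 counts, which is 0.0848 to 0.119 CPM in these libraries, counting error only. Cntfr ends 2899 bases from Il11ra1, its neighbour on the opposite strand.

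The ligands were set apart by 1 shNT library more than by group. Lif (ENSMUSG00000034394; plus strand of chromosome 11, 4257557 to 4272514), which signals through Lifr and gp130, had 8.16, 14.2 and 16.3 CPM in the libraries labelled shIGF2BP1, against 13.8, 11.1 and 49.4 CPM in shNT libraries. The shNT replicate 3 value was 3.04-fold above the next highest library, and the other 5 libraries overlapped. With that library the log2 fold change was -0.94 ± 0.52 (SE), and with it left out 0.05. Il11 (ENSMUSG00000004371; minus strand of chromosome 7, 4772373 to 4782859) had 10, 36 and 8 counts in the libraries labelled shIGF2BP1, against 11, 14 and 55 in shNT libraries. It was again highest in shNT replicate 3, with shIGF2BP1 replicate 2 next, and the log2 fold change was -0.51 ± 0.74 (SE) with shNT replicate 3 and 0.54 when it was left out.

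Of 10 further ligand genes, 3 were tested and 0 passed the edgeR threshold (0 had an unadjusted p under 0.05, and DESeq2 and limma-voom called 0). Il6 had 7, 14 and 11 counts in the libraries labelled shIGF2BP1, against 7, 9 and 121 in shNT libraries, with nearly all shNT counts in replicate 3. The log2 fold change was -1.95 ± 0.98 (SE; edgeR adjusted p = 0.743), and 0.50 when that library was left out. Ctf1, cardiotrophin 1, had 3.97, 6.32 and 5.61 CPM in the libraries labelled shIGF2BP1, against 9.16, 4.31 and 4.50 CPM in shNT libraries (edgeR adjusted p = 0.955). Cntf had 18, 16 and 25 counts in the libraries labelled shIGF2BP1, against 5, 20 and 6 in shNT libraries (edgeR adjusted p = 0.786), and shares 847 exon bases with Zfp91 on the same strand, so its counts are uncertain. Osm, Il31, Ebi3 and Ctf2 had 0 counts in every library, and Il27 and Clcf1 were too low to test. Of 7 further receptor genes only Il12rb1, an IL12 receptor chain, was tested, at 0.0381, 0.482 and 0.219 CPM in the libraries labelled shIGF2BP1, against 0.707, 0.880 and 0.212 CPM in shNT libraries (edgeR adjusted p = 0.811).

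Stat3 and Socs3 were nearly level across the libraries. Stat3 (ENSMUSG00000004040; minus strand of chromosome 11, 100885098 to 100939540) had 148, 181 and 125 CPM in the libraries labelled shIGF2BP1, against 140.1, 135 and 167 CPM in shNT libraries. All 6 values lay within 1.45-fold of each other and the groups overlapped, with a log2 fold change of 0.04 ± 0.21 (SE) that ran from -0.10 to 0.16 as each library was left out. Socs3 (ENSMUSG00000053113; minus strand of chromosome 11, 117966079 to 117970047) had 129.9, 132 and 95.6 CPM in the libraries labelled shIGF2BP1, against 144, 121 and 131 CPM in shNT libraries. The lowest value was shIGF2BP1 replicate 3 and the other 5 lay close together, with a log2 fold change of -0.15 ± 0.20 (SE). Thus shNT replicate 3, the highest library for Lif, Il6, Il11 and Il6st, was not the highest for Socs3.

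Levels of different genes were compared as CPM per kilobase of annotated exon. Socs3 was highest in both groups, at 41.2 ± 7.10 CPM per kb in the libraries labelled shIGF2BP1 and 45.7 ± 3.89 in shNT libraries (SD, n = 3 each, as for all levels here). Il6st had 11.6 ± 3.25 CPM per kb in the libraries labelled shIGF2BP1, behind Socs3, Stat3 and Il11ra1, and 29.9 ± 14.0 in shNT libraries, behind Socs3 alone. Stat3 had 15.9 ± 2.97 CPM per kb in the libraries labelled shIGF2BP1 and 15.5 ± 1.77 in shNT libraries. The mean level of the shared receptor thus lay below that of the transcription factor in the libraries labelled shIGF2BP1 and above it in shNT libraries. Il11ra1 had 14.6 ± 1.73 CPM per kb in the libraries labelled shIGF2BP1 and 12.1 ± 3.52 in shNT libraries. Over the 6 libraries the ranges of Socs3 and Il6st, Il6st and Stat3, and Stat3 and Il11ra1 overlapped, so the order of these neighbours is not clear of their spread.

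The other receptors and ligands had lower mean levels in both groups. The highest Lifr library, at 9.94 CPM per kb, was just under the lowest for Il11ra1, at 9.99, and Lif reached 11.3 in shNT replicate 3, above Il11ra1 in that library. Lifr had 4.85 ± 0.874 CPM per kb in the libraries labelled shIGF2BP1 and 6.22 ± 3.41 in shNT libraries. Lif, its ligand, had 2.96 ± 0.969 CPM per kb in the libraries labelled shIGF2BP1 and 5.69 ± 4.91 in shNT libraries. The ligand and its receptor chain were therefore both present in every library, with overlapping ranges. Il6ra had 0.989 ± 0.0385 CPM per kb in the libraries labelled shIGF2BP1 and 2.30 ± 0.981 in shNT libraries. Osmr had 1.61 ± 0.696 CPM per kb in the libraries labelled shIGF2BP1 and 1.68 ± 0.574 in shNT libraries, and its range overlapped that of Il6ra, as the range of Il6ra did that of Lif. With the longest transcript in place of all exons, Osmr moved above Il6ra in the order. Il11 was below all of these in every library, at 0.271 ± 0.191 CPM per kb in the libraries labelled shIGF2BP1 and 0.391 ± 0.353 in shNT libraries.

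**Figure D2:**
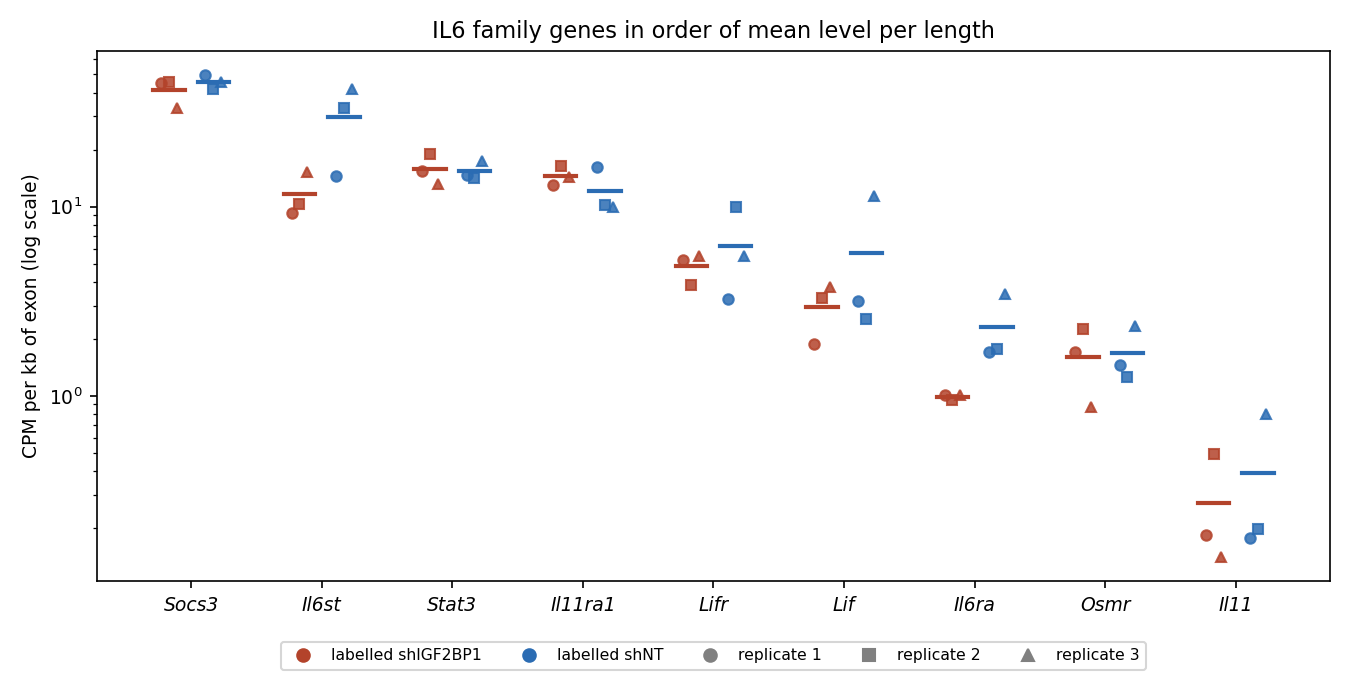
CPM per kilobase of exon (log axis) for the 9 tested IL6 family genes, from the highest mean over all libraries on the left to the lowest on the right, with the libraries labelled shIGF2BP1 (red) left of shNT libraries (blue), group means as bars and symbols for replicates. Il6st lies at 9.22 to 15.3 in the libraries labelled shIGF2BP1 and at 14.6 to 41.8 in shNT libraries, around the nearly level Stat3.

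Among the ratios of Il6st computed, only that to Lifr did not overlap between the groups. How often ratios of other gene pairs do so was not computed. Per length, Il6st exceeded Lifr 1.77-, 2.67- and 2.79-fold in the libraries labelled shIGF2BP1, against 4.47-, 3.35- and 7.64-fold in shNT libraries, and the groups did not overlap. In shNT replicate 1, Il6st itself, at 162 CPM, was below shIGF2BP1 replicate 3, at 169.9 CPM. Lifr had its lowest value of all libraries in shNT replicate 1, at 35.1 CPM. The Il6st to Stat3 ratio was 0.594, 0.541 and 1.17 in the libraries labelled shIGF2BP1, against 0.990, 2.35 and 2.39 in shNT libraries, where shIGF2BP1 replicate 3 lay above shNT replicate 1. Il6st over Il6ra, by contrast, was mixed, at 9.13, 10.9 and 15.1 in the libraries labelled shIGF2BP1 and 8.53, 18.9 and 12.2 in shNT libraries. These ratios rest on the comparison that chose the genes and carry no test.

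Kinases, adaptors and inhibitors downstream of gp130 gave no gene past the edgeR threshold. Of 10 JAK kinases and other STATs, 8 were tested, 6 positive and 2 negative, with a median log2 fold change of 0.17. Of the 8, 0 passed (2 had an unadjusted p under 0.05, as 7.16% of all genes did, and DESeq2 and limma-voom called 0). Stat5a had 7.74, 9.70 and 4.85 CPM in the libraries labelled shIGF2BP1, against 3.20, 4.52 and 2.99 CPM in shNT libraries (log2 fold change 1.06 ± 0.37 SE, edgeR adjusted p = 0.62). Its groups did not overlap, as was so in this direction for 6.06% of tested genes, and it shares 72 exon bases with Stat3 on the opposite strand. Stat5b had 17.6, 15.96 and 16.1 CPM in the libraries labelled shIGF2BP1, against 10.5, 13.9 and 15.2 CPM in shNT libraries (edgeR adjusted p = 0.843). The groups of Stat5b did not overlap either, in the same direction as Stat5a. Jak1, the main kinase of gp130, had 211, 176 and 223 CPM in the libraries labelled shIGF2BP1, against 154, 214 and 184 CPM in shNT libraries (edgeR adjusted p = 0.928).

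The list of SHP2, adaptors and SRC kinases had 10 of 11 genes tested, 1 positive and 9 negative, with a median of -0.19 and 0 calls (0 at an unadjusted p under 0.05, and 0 by DESeq2 or limma-voom). Of all tested genes 51.5% were negative. Without shNT replicate 3 this list had 5 positive and 5 negative genes and a median of -0.02. The log2 fold change was -0.28 ± 0.20 (SE) for the adaptor Shc1, with an edgeR adjusted p of 0.825, and -0.37 ± 0.26 for the kinase Fyn, with an edgeR adjusted p of 0.826. For the exchange factor Sos2 it was -0.22 ± 0.20 (edgeR adjusted p = 0.876) and for the adaptor Grb2 0.17 ± 0.19 (edgeR adjusted p = 0.898), and the groups overlapped for all 4. All 15 negative regulators were tested, 4 positive and 11 negative, with a median of -0.16 and 0 calls (1 at an unadjusted p under 0.05, as 7.16% of all genes were, and 0 by DESeq2 or limma-voom). Without shNT replicate 3, 8 of the 15 were negative and the median was -0.0003. Socs4, a SOCS-family protein, had 83.8, 75.7 and 81.1 CPM in the libraries labelled shIGF2BP1, against 85.8, 147 and 106 CPM in shNT libraries (log2 fold change -0.49 ± 0.22 SE, edgeR adjusted p = 0.695). Its groups were just apart, and 5.59% of tested genes had no overlap in this direction. Ptpn6, a phosphatase, had a log2 fold change of 0.53 ± 0.29 (SE; edgeR adjusted p = 0.772). Ptpn2, another phosphatase, had -0.39 ± 0.22 (edgeR adjusted p = 0.778), and Cish, an inhibitor induced by STAT5, had -0.56 ± 0.34 (edgeR adjusted p = 0.788), all with overlapping groups. Ptpn6 shares 195 exon bases with an antisense gene and Cish 479 with another. The 4 genes of receptor shedding, the proteases Adam10 and Adam17 and their partners Rhbdf1 and Rhbdf2, had log2 fold changes from -0.30 to -0.003 and 0 calls by edgeR, DESeq2 or limma-voom (0 at an unadjusted p under 0.05; smallest edgeR adjusted p = 0.871), and Adam10, Adam17 and Rhbdf1 turned positive under other settings.

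**Figure D3:**
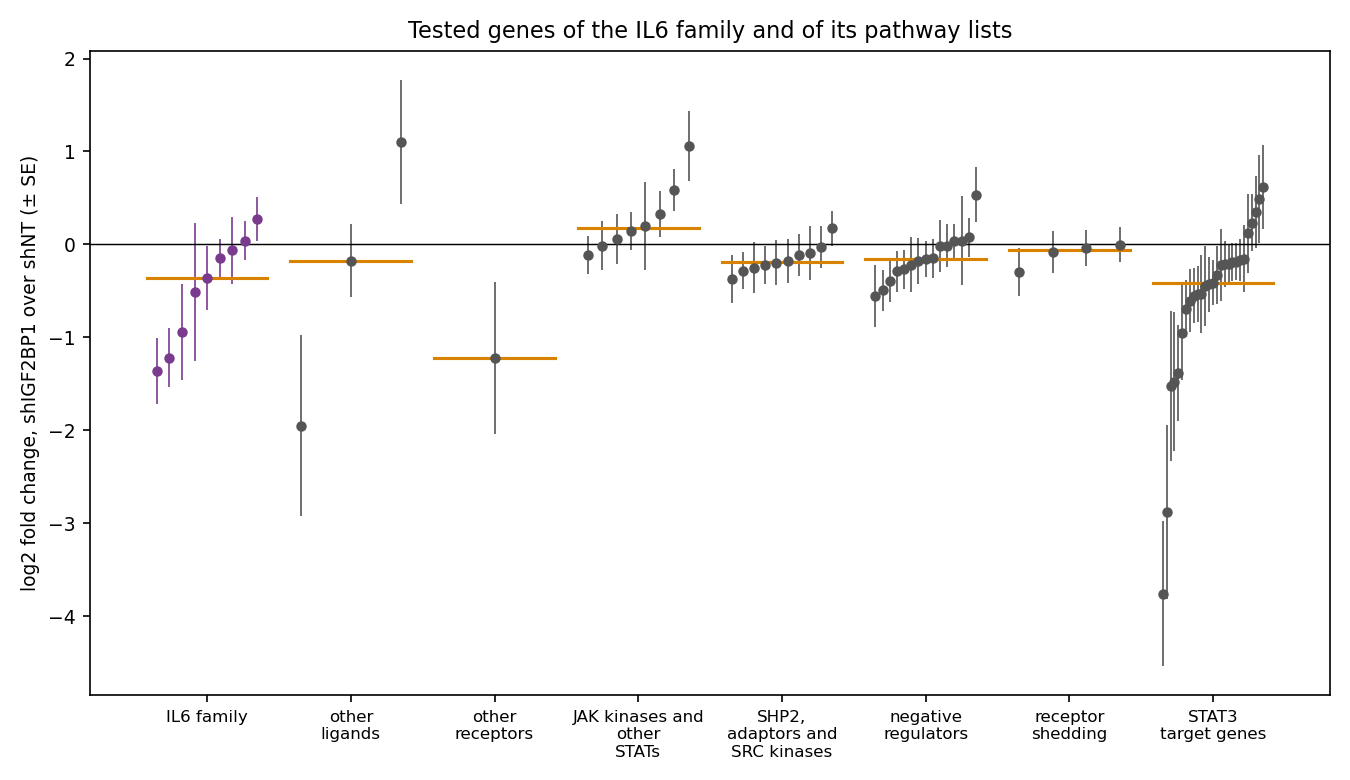
Log2 fold change of the libraries labelled shIGF2BP1 over shNT libraries (points, with SE as bars) for the 9 tested IL6 family genes (purple) and the tested genes of 7 pathway lists (grey), ordered by value within each list; orange lines are list medians. Il6st and Il6ra lie lowest in the family, at -1.37 and -1.22, and the STAT3 target genes have a median of -0.41.

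Genes known as STAT3 targets had mostly negative log2 fold changes, and most were highest in shNT replicate 3. Of 35 listed genes 27 were tested, 5 positive and 22 negative, with a median log2 fold change of -0.41. Of all tested genes 51.5% were negative, and their median was -0.01. None passed the edgeR threshold, while 4 had an unadjusted p under 0.05, as 7.16% of all genes did. DESeq2 called 1, Saa3 (0.61% of all genes), and limma-voom called 0. In shNT replicate 3, 19 of the 27 genes were at their highest, or 70.4%, against 24.5% of all tested genes. Without that library the median was -0.12, with 20 of 27 negative, where all tested genes had a median of 0.002 and 49.8% were negative. Many of these genes also respond to other signals, so the list is not specific to STAT3. Like the other pathway lists, it was chosen with earlier results of these data known. These shares are therefore a description, and no enrichment is read from them.

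Saa3, an acute-phase protein, had 7, 11 and 2 counts in the libraries labelled shIGF2BP1, against 183, 46 and 53 in shNT libraries. Its groups did not overlap, as was so in this direction for 5.59% of tested genes. The log2 fold change was -3.76 ± 0.78 (SE, edgeR adjusted p = 0.284). It was -2.73 without shNT replicate 1, the highest library of Saa3, and -4.07 without shNT replicate 3. Myc, a growth-promoting transcription factor, had 3.16, 6.86 and 8.67 CPM in the libraries labelled shIGF2BP1, against 6.03, 10.9 and 121 CPM in shNT libraries, with a log2 fold change of -2.88 ± 0.94 (SE; edgeR adjusted p = 0.574), or -0.44 when shNT replicate 3 was left out. The difference in Myc thus lay largely in 1 library. Klf4, a zinc finger factor, had 65.4, 73.5 and 74.0 CPM in the libraries labelled shIGF2BP1, against 84.0, 81.5 and 389 CPM in shNT libraries. Its log2 fold change was -1.38 ± 0.52 (SE, edgeR adjusted p = 0.652), or -0.22 when shNT replicate 3 was left out. The groups of Klf4 did not overlap, as for 5.59% of tested genes in this direction. Cebpb, a transcription factor of acute-phase genes, had 63.9, 118 and 81.9 CPM in the libraries labelled shIGF2BP1, against 166, 84.6 and 177 CPM in shNT libraries (log2 fold change -0.69 ± 0.31 SE, edgeR adjusted p = 0.687), and overlaps Tmem189 on the opposite strand by 312 exon bases. Without shNT replicate 3 the values of Myc and Klf4 were thus smaller in size, and that of Saa3 was not.

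**Figure D4:**
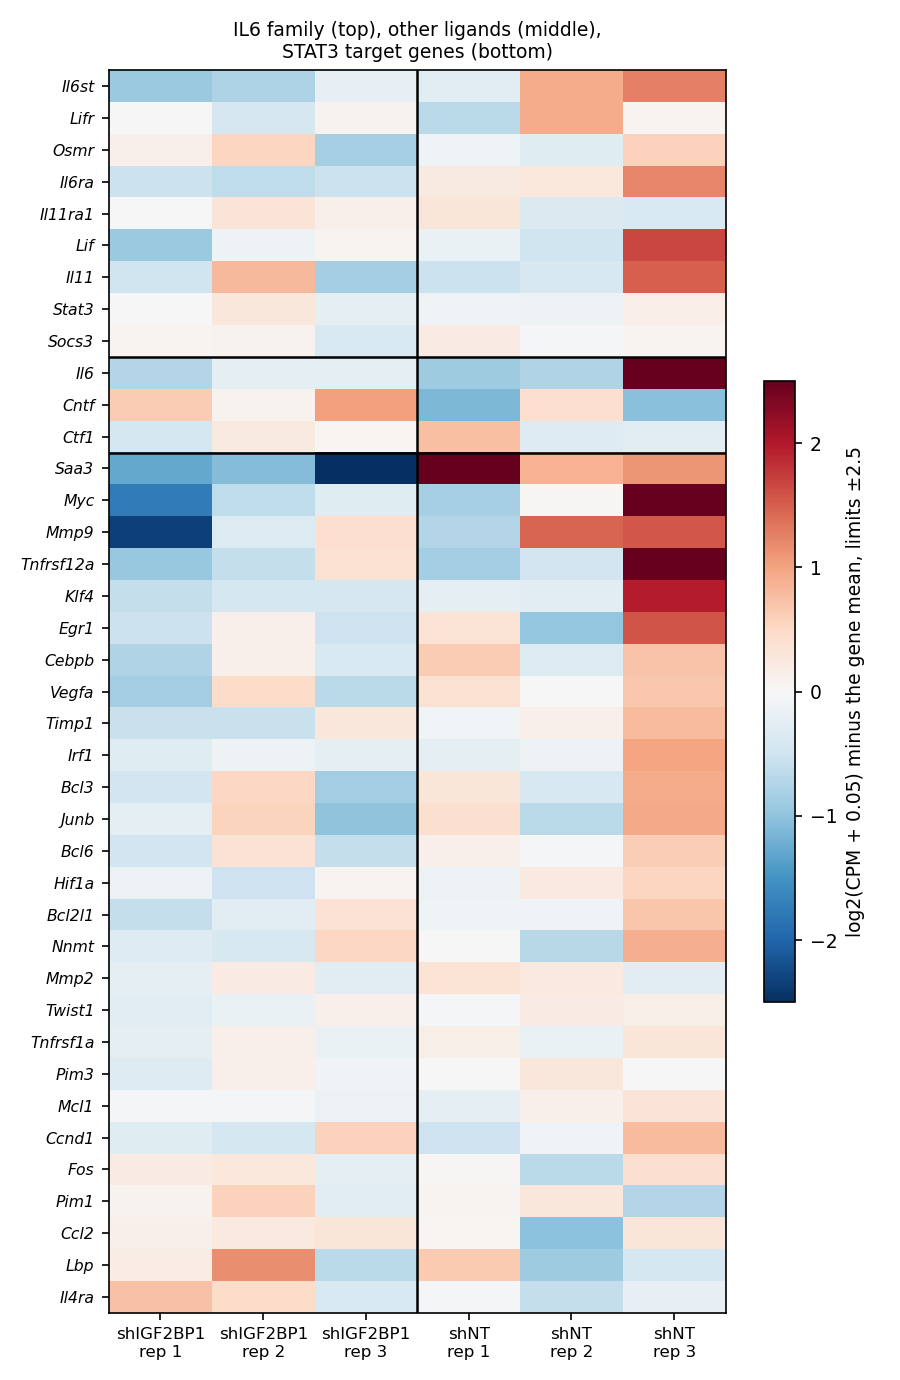
Log2(CPM + 0.05) of each gene minus its mean over the 6 libraries, from blue (lower) to red (higher), with the libraries labelled shIGF2BP1 left of shNT libraries; the blocks are the IL6 family, the other tested ligands and the tested STAT3 target genes. The shNT replicate 3 column is the reddest for Lif, Il11, Il6, Myc and Klf4, whereas Stat3 and Socs3 are pale across all columns.

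The genes most like Il6st were found from log2 CPM centred on each gene's mean over the 6 libraries, by the smallest root mean square difference among 10471 tested genes with a mean of 5 CPM or more. They were C77080 (0.196), Stom (0.230), Egfr (0.234), Uprt (0.257) and Atf6 (0.263), with the differences in log2 units. C77080 had 16.2, 19.9 and 20.3 CPM in the libraries labelled shIGF2BP1, against 21.8, 54.8 and 56.6 CPM in shNT libraries, and like Il6st was lowest among shNT libraries in replicate 1. Egfr, the epidermal growth factor receptor, had 25.1, 26.4 and 37.7 CPM in the libraries labelled shIGF2BP1, against 28.3, 57.3 and 99.2 CPM in shNT libraries. Atf6, a membrane-bound transcription factor of the unfolded protein response, had 69.4, 105 and 149 CPM in the libraries labelled shIGF2BP1, against 131, 206 and 289.8 CPM in shNT libraries. Stom, the membrane protein stomatin, had 53.8, 64.6 and 95.1 CPM in the libraries labelled shIGF2BP1, against 58.5, 161 and 207 CPM in shNT libraries. All 5 were highest in shNT replicate 3, like Il6st. They were picked by likeness to Il6st over these same libraries, so the shared pattern follows from the choice. Within the family Il6ra was the most like Il6st, at 0.40 and place 87 of all genes compared, while Lifr lay at 0.66 and Il11ra1 at 1.07.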

How the data were processed

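Poly-A RNA was measured in 6 libraries, 3 labelled shIGF2BP1 and 3 labelled shNT. The authors deposited a table of raw read counts for each gene ID, whose values are whole numbers with unequal library totals. Tools named in the submitters' processing notes were HISAT2 2.1.0, HTSeq and bcl2fastq, with the build GRCm38. Annotation release, strand setting and read filters were not given in the sources used here. Symbols and coordinates came from GENCODE M21 on GRCm38, which matched 42462 of 43629 IDs. The 92 spike-in rows held 0 counts and were left out.

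Counts were normalised by TMM and fitted with edgeR 4.0.16 in R 4.3.3 (quasi-likelihood F test, robust, two-sided, no covariates) on 13445 genes kept by filterByExpr (minimum count 10, minimum total 15), with Benjamini-Hochberg adjustment over all of them and a threshold of 0.05. SE is the size of the log2 fold change before edgeR's shrinkage, over the square root of F. The printed log2 fold change is the shrunk one. CPM used TMM factors. Levels per length used the union of annotated exons, or the longest transcript as an alternative. The genes and the lists were chosen with earlier results of these data known. Named outside the set were up to 4 genes of each pathway list by smallest p, the 5 genes most like Il6st, and markers. Some genes of these lists are not reported here. Alternatives were RLE factors, library size only, no filter, mean CPM of 5 or more, a replicate block, DESeq2 1.42.0, limma-voom (limma 3.58.1) and leaving out each library. The fits were tested on simulated data. Every pair of libraries differed by more than sampling noise (chi-square 46.1 to 246 per gene). Floors cover counting error only.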

Additional observations from a re-analysis of the deposited data

How the results depend on the processing

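The number of genes called was 3 with RLE factors or library size only, 138 with no filter, 82 with DESeq2, 18 with the replicate block, 1 with a mean CPM of 5 or more or with limma-voom, and 1 to 5 when each library was left out. Of the tested IL6 family genes 6 to 8 had a negative log2 fold change under the settings that kept all libraries, and 4 to 8 when each library was left out, the 4 being without shNT replicate 3. Il6st and Il6ra kept a negative log2 fold change under all of these settings. They were among the 138 of 21088 genes called with no filter and the 82 of 13445 called with DESeq2. The comparison chose these genes, so nothing is read from those calls. Among the pathway lists 1 gene, Saa3, was called with no filter or with DESeq2, and 0 under the other settings. The log2 fold change of Igf2bp1 was -0.047 under the replicate block, -0.24 under limma-voom, and between -1.24 and 0.76 with single libraries left out.

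With single libraries left out, Il6 ranged from -2.46 to 0.50, Ctf1 from -0.36 to 0.27, Adam10 from -0.14 to 0.040, Adam17 from -0.089 to 0.057 and Rhbdf1 from -0.26 to 0.051, and the cause was not tested. Adam10 turned to 0.041 with library size only. Adam17, at -0.003, turned to 0.078 with library size only, 0.0017 with no filter, 0.016 with a mean CPM of 5 or more, 0.000296 with limma-voom and 0.00077 with the replicate block. All other tested genes named from the pathway lists kept their sign. Libraries of the same number deviated together with r of 0.24, -0.11 and 0.33, and those of unlike numbers with r between -0.41 and 0.22, so the numbers were not taken to pair the samples. Low counts limit Il11, Il6 and Cntf, and Cntfr could not be compared.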
